A study of Mus musculus with 3 samples.

Results

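Collagens are the triple-helical proteins that form most of the fibrous matrix between cells and the scaffold of every basement membrane. Every gene of the mouse collagen family measured in neonatal testis was collected here by its symbol, Col followed by the type number, the letter a and the chain number. The rule found 44 genes among the 27998 in the count matrix. No measured value entered the choice. All 44 were placed in the GENCODE M21 annotation of GRCm38.

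The study profiled testis cells of mice at post-natal day 3 with the 10x Genomics Single Cell 3' v2 assay, in which each RNA molecule is counted once by a molecular identifier (UMI) near its 3' end. There was 1 library for each of 3 genotypes: Cdk2-WT (Cdk2 +/+), Cdk2-HET (Cdk2 +/YS) and Cdk2-Y15S (Cdk2 YS/YS), all untreated males bred on a mixed background of B6(Cg)-Tyrc-2J/J and FVB/NJ. Cdk2 encodes a cyclin-dependent kinase, and the label of the YS allele names a change from tyrosine to serine in it. The labels give the age at dissection as 3.5 days post partum for all 3 libraries, beside the post-natal day 3 above. The testes were freed of the capsule and dissociated with Trypsin/EDTA and DNase I. Because each genotype is 1 library, genotype and library cannot be told apart, no comparison between genotypes has a test, and every interval given covers counting error only. Where 3 values stand together, they are for Cdk2-WT, Cdk2-HET and Cdk2-Y15S in that order.

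The libraries held 5061, 4958 and 4403 cells with a median of 5570, 5908 and 5723 UMIs per cell. The filter asked for 500 or more genes and for no more than 10% mitochondrial UMIs per cell, and 85, 83 and 53 doublets were then removed. Between 27 and 32 cell barcodes occurred in both of any 2 libraries. Cells were sorted into classes by UMIs of gate genes, none of which is a collagen. Stromal cells had at least 3 UMIs of Pdgfra, Dcn, Lum and Fn1, and those with at least 8 UMIs of the smooth muscle genes Acta2, Myh11 and Tagln were set apart as myoid. Sertoli cells had at least 3 UMIs of Amh, Sox9, Cldn11 and Inha and none of Dcn or Lum. Leydig and endothelial cells were gated on steroidogenic and on vascular genes, and germ cells were those that the submitters deposited as such, 69 of Cdk2-WT and 72 of Cdk2-Y15S, with none of Cdk2-HET. The stromal class held 1319, 1496 and 1551 cells, the myoid class 411, 602 and 428, the Sertoli class 2164, 1843 and 1305, the Leydig class 55, 55 and 64, and the endothelial class 33, 64 and 53. Between 13.9% and 17.4% of the kept cells of a library fell in no class.

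Marker genes that were not gate genes were read in each class. All 8 stromal, 8 myoid, 10 Sertoli, 8 endothelial and 6 germ markers were detected in the class of that name in every library that had it. In the Leydig class 5 of 6 Leydig markers were detected, with Hsd3b6, a steroid dehydrogenase of adult Leydig cells, at 0 in all 3 libraries. The Sertoli markers in this class summed to 2127, 2327 and 1776 CPM (UMIs of a gene per 1000000 UMIs of the class) beside 2996, 4100 and 1260 CPM of Leydig markers. Detection alone did not tell the classes apart, since all 10 Sertoli markers were also detected in stromal cells. Sertoli markers summed to 9584, 10309 and 9705 CPM in Sertoli and to 613, 819 and 708 CPM in stromal cells. Stromal markers summed to 3087, 3484 and 3814 CPM in stromal and to 77.2, 83.9 and 98.9 CPM in Sertoli cells. Myoid markers summed to 2286, 2345 and 2688 CPM in myoid and to 630, 562 and 533 CPM in stromal cells.

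The fibrillar collagens (types I, III, V, XI and XXVII) assemble into the fibrils that give tissue its tensile strength. Type IV forms the sheet-like network of basement membranes, type VI forms beaded microfibrils around cells, and types IX, XII, XIV and XVI attach to the surface of fibrils. Types XIII, XVII, XXIII and XXV span the cell membrane, and types XV and XVIII are basement membrane collagens with attached sugar chains; the C-terminal fragment of type XVIII is endostatin. In the testis the wall of the seminiferous tubule is built from both sides, by the peritubular myoid cells outside and the Sertoli cells inside.

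The chains of type IV are encoded in head-to-head pairs. In 1 such pair, Col4a3 and Col4a4, both genes were highest in myoid cells of every library and both differed between the libraries there. Col4a1 and Col4a2 also shared their highest class in each library and were both lowest in Cdk2-WT in myoid cells. Col4a4 lies at chr1:82448423-82586849 on the minus strand and Col4a3 at chr1:82586921-82722059 on the plus strand, so that only 71 bases separate their starts. The whole gap, chr1:82586850-82586920, is given below as read on the strand of Col4a4, with no capitals because it holds none of the motifs searched. It is followed by the 250 bases before the start of Col3a1 (chr1:45311288-45311537, plus strand), a fibrillar gene that was higher in the stromal cells of both other libraries than in Cdk2-WT, and by those before the start of Col13a1 (chr10:61979109-61979358, minus strand), a membrane collagen that was lower there. Capitals mark TATAAA. All are from RefSeq, build GRCm38.p6.
Col4a4 and Col4a3 shared gap: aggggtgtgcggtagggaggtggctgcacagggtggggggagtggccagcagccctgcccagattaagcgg
Col3a1 upstream: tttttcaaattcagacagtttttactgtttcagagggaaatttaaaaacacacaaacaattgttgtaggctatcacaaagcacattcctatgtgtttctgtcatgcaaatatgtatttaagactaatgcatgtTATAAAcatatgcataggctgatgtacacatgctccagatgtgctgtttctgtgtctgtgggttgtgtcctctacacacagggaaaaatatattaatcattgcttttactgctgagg
Col13a1 upstream: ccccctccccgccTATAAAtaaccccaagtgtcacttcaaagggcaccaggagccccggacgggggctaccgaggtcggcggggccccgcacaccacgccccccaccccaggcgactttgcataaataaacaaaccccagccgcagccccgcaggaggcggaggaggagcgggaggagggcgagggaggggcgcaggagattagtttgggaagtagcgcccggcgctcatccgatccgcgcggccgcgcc

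The Col3a1 window had 35.2% G and C and the Col13a1 window 68.8%, while the Col4a4 and Col4a3 gap had 69.0%. TATAAA began at position -117 before the Col3a1 start and at position -237 before that of Col13a1. Of the 44 members, 35 were in the RefSeq promoter table. TATAAA (or TTTATA on the other strand) was in 5 of them, against 12.4% of all 32851 windows of the table. CCAAT (or ATTGG) was in 13 of them, against 33.8%, and GGGCGG (or CCGCCC) in 21, against 32.7%. A member was counted if any of its windows held the motif, and some members, such as Col9a1, have several windows. The share over the table is of single windows, so that count and share are in unlike units. These matches describe letters only. Of the other type IV pairs, Col4a1 (chr8:11198423-11312826, minus strand) and Col4a2 (chr8:11312805-11449287, plus strand) have starts 21 bases apart, so that the gene models overlap at their 5′ ends, away from the counted 3' ends. Col4a5 and Col4a6 on chromosome X are 1308 bases apart, and Col3a1 and Col5a2 (chr1:45374321-45503282, minus strand) face each other tail to tail across 24614 bases.

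Collagen UMIs were concentrated in the stroma. All members together took 0.626%, 0.812% and 0.951% of the UMIs of stromal cells and 0.468%, 0.604% and 0.625% of those of myoid cells. The exact 95% binomial (Clopper-Pearson) intervals of the stromal shares were 0.620% to 0.632%, 0.806% to 0.818% and 0.945% to 0.957%. In Sertoli cells they took 0.0359%, 0.0425% and 0.0495%, and in the deposited germ cells 0.0437% in Cdk2-WT and 0.0527% in Cdk2-Y15S. Leydig cells had 0.131%, 0.194% and 0.249%, and endothelial cells 0.367%, 0.447% and 0.476%. In each of these classes the share was lowest in Cdk2-WT and highest in Cdk2-Y15S. Macrophage-gated cells, read as a background class of 15, 27 and 14 cells, had the opposite order, 0.112%, 0.0744% and 0.0367%.

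Among stromal, myoid and Sertoli cells the mix of types differed more between classes than between libraries. Of the collagen UMIs of stromal cells, 73.5%, 79.0% and 80.7% were fibrillar and 5.08%, 4.80% and 4.64% were type IV. Myoid cells had 51.4%, 51.6% and 50.8% fibrillar and 22.8%, 25.5% and 27.4% type IV. Sertoli cells had 12.7%, 16.9% and 19.6% fibrillar, 30.8%, 36.3% and 33.9% type IV and 35.6%, 25.3% and 29.1% types XV and XVIII. Stromal cells were thus mainly fibrillar, Sertoli cells mainly of basement membrane types, and myoid cells between them. Type VI took 15.5%, 11.5% and 10.9% of stromal and 15.9%, 13.3% and 13.9% of myoid collagen UMIs. Since capture near the 3' end differs between genes, such shares compare classes and libraries and do not give the protein makeup.

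Of the 44 members, 33 had at least 50 UMIs in a class. The other 11 (Col2a1, Col6a5, Col7a1, Col8a1, Col10a1, Col11a2, Col19a1, Col20a1, Col22a1, Col24a1 and Col28a1) had at most 62 UMIs over all 6 classes. Col28a1 had 0, which allows a stromal level of up to 0.433, 0.340 and 0.337 CPM. For 24 of the 33 the class with the highest level was the same in all 3 libraries: stromal for 15, myoid for 6, and 1 each for Sertoli (Col9a3), Leydig (Col14a1) and endothelial cells (Col18a1). For the 9 others the leading class changed with the library, and Col4a1, Col4a2 and Col15a1 had their highest level in endothelial cells of Cdk2-WT and Cdk2-Y15S but in myoid cells of Cdk2-HET.

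Among the fibrillar genes, type I collagen, the main fibril former of connective tissue, is made of 2 kinds of chain. Col1a1 (chr11:94936224-94953042) stood at 1244, 1704 and 2158 CPM in stromal cells, with 95% Poisson intervals of 1218 to 1271, 1677 to 1731 and 2128 to 2189. Col1a2 (chr6:4504814-4541544), the second chain, stood at 1783, 2499 and 2922 CPM. Col3a1 (chr1:45311538-45349706), which makes the thinner fibrils of elastic tissue, stood at 1312, 1909 and 2222 CPM. Cdk2-WT was lowest, Cdk2-HET next and Cdk2-Y15S highest for each, with no overlap of intervals. Col5a2, a chain of the type V collagen that starts fibrils, followed the same order at 116, 163 and 197 CPM, whereas its partner Col5a1 differed less, at 86.4, 94.1 and 106 CPM. Col5a3 had 14.4, 10.99 and 16.4 CPM, Col11a1 9.23, 8.61 and 11.7 CPM and Col27a1 31.4, 28.9 and 37.3 CPM, levels at which Cdk2-HET was the lowest library.

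In myoid cells the same genes were lower than in stromal cells. Col1a1 had 540.5, 719 and 855 CPM, Col1a2 1288, 1619 and 1585 CPM, and Col3a1 435, 607 and 549.9 CPM. Cdk2-WT was again the lowest library, but Col1a2 and Col3a1 were not higher in Cdk2-Y15S than in Cdk2-HET. Col5a1 stood at 65.7, 76.7 and 79.6 CPM and Col5a2 at 51.3, 57.9 and 61.2 CPM. Col11a1, a minor fibrillar chain best known from cartilage, had 10.8, 15.3 and 23.5 CPM from 27, 57 and 56 UMIs.

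Type IV chains followed another plan. Col4a1 had 100.3, 136 and 151 CPM in stromal cells and 339, 542 and 537 CPM in myoid cells, and Col4a2 had 117, 137 and 146 CPM in stromal and 351, 456 and 422 CPM in myoid cells. These are the chains of the network found in nearly all basement membranes, and in each library their myoid level was the higher of the 2 classes. Col4a3, a chain of the specialised network known from the glomerulus of the kidney, had 5.48, 7.14 and 6.29 CPM in stromal cells and 27.6, 66.5 and 92.2 CPM in myoid cells (69, 247 and 220 UMIs). Its partner Col4a4 had 60.3, 63.4 and 77.6 CPM in stromal and 303, 422 and 589 CPM in myoid cells, with myoid Poisson intervals of 282 to 326, 402 to 444 and 558 to 620.5. For both, Cdk2-WT was lowest and Cdk2-Y15S highest in myoid cells, without overlap of the intervals. The X-linked Col4a5 had 26.4, 33.0 and 46.1 CPM in stromal and 34.5, 39.8 and 55.7 CPM in myoid cells. Col4a6, encoded beside it, had 9.09, 12.6 and 14.3 CPM in stromal and 10.8, 10.5 and 15.9 CPM in myoid cells.

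A UMI of Col4a4 was seen in 72.5%, 87.0% and 91.6% of myoid cells and in 22.6%, 25.3% and 28.3% of stromal cells. In Sertoli cells, at median depths of 6093 to 6192 UMIs, the share was 3.65%, 3.20% and 5.67%. With cells thinned to 3000 UMIs, and 12, 7 and 18 shallower myoid cells left out, the myoid shares were 54.9%, 68.7% and 78.5%. The order of the libraries was the same at equal depth.

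The main type VI chains, Col6a1, Col6a2 and Col6a3, were under 1.5-fold between libraries in the stroma. Col6a1 (chr10:76708792-76726168) had 509, 510.1 and 544 CPM in stromal cells, Col6a2 363, 329 and 362 CPM and Col6a3 93.9, 92.2 and 118 CPM. In myoid cells they had 367, 422 and 446 CPM, 296, 299.6 and 289 CPM, and 74.1, 74.3 and 116 CPM. Of the 3 chains Col6a3 differed most, with Cdk2-Y15S above both other libraries in either class. Col6a4 and Col6a6, genes of 1 cluster on chromosome 9 whose chains can take the place of the third chain, were rare. Col6a4 had 9, 25 and 65 UMIs in stromal cells (1.30, 2.83 and 7.30 CPM), and Col6a6 had 10, 18 and 60 UMIs (1.44, 2.04 and 6.74 CPM).

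**Figure D1:**
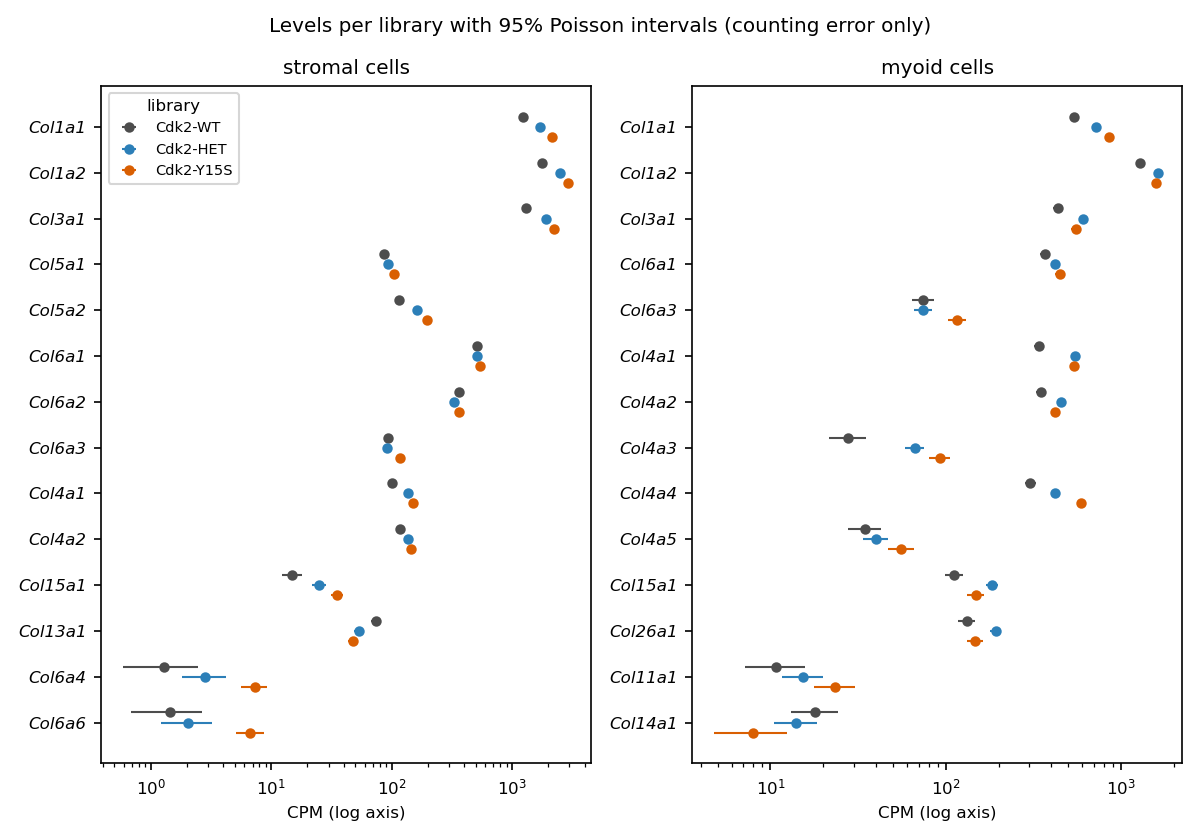
Level in CPM on a logarithmic axis of the leading collagen genes in stromal (left) and myoid cells (right), 1 point per library with its 95% Poisson interval, which covers counting error only. Col1a1, Col1a2 and Col3a1 lie above 1000 CPM in stromal cells, and Col4a4 runs from 303 to 589 CPM in myoid cells.

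Among the collagens on fibril surfaces, Col16a1 had 21.9, 25.04 and 34.9 CPM in stromal and 32.9, 39.0 and 46.5 CPM in myoid cells. Col12a1 had 29.3, 14.4 and 21.8 CPM in stromal cells, and Col14a1 7.07, 3.51 and 5.61 CPM there and 18.03, 13.996 and 7.96 CPM in myoid cells. Cdk2-WT was therefore highest for Col12a1 and Col14a1, unlike the fibrillar genes. Col9a1 and Col9a2, chains of the cartilage collagen IX, were low at 4.33, 4.08 and 3.82 CPM and 7.21, 9.86 and 7.75 CPM in stromal cells.

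The membrane collagens did not follow the fibrillar genes either. Col13a1, found at sites of cell adhesion, had 74.0, 53.1 and 47.7 CPM in stromal and 81.7, 72.9 and 62.5 CPM in myoid cells, and Cdk2-WT was highest in both classes. Col25a1 had 75.7, 73.2 and 55.1 CPM in stromal cells and 26.4, 23.4 and 25.99 CPM in myoid cells. Col23a1 had 76.3, 85.9 and 73.9 CPM in stromal and 35.7, 27.99 and 26.4 CPM in myoid cells, and Col17a1 11.5, 13.1 and 11.8 CPM in stromal cells. Col15a1, a multiplexin of basement membranes, had 15.002, 24.9 and 35.2 CPM in stromal and 111, 184 and 148 CPM in myoid cells, lowest in Cdk2-WT in both. Col18a1 had 7.79, 10.6 and 11.7 CPM in stromal cells. Col26a1, a collagen first described in testis and ovary, had 33.5, 50.8 and 37.3 CPM in stromal and 132, 192 and 147 CPM in myoid cells, with Cdk2-HET highest in both. Col8a2, a short network chain, had 5.91, 3.17 and 6.40 CPM in stromal and 8.01, 8.61 and 10.9 CPM in myoid cells.

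The genotype comparisons were then read as log2 ratios of summed UMIs with 0.5 UMI added, and a gene was counted as higher or lower when it differed at least 1.5-fold and had at least 50 UMIs over the 2 libraries. Both comparisons use the Cdk2-WT library, so that they are not independent of each other. For Cdk2-HET over Cdk2-WT in stromal cells, 2 of 30 members tested were higher (Col15a1 and Col26a1), where 4.72% of all genes tested were, and 3 were lower (Col8a2, Col12a1 and Col14a1), against 2.39% of all genes. The median over the members was 0.18, beside 0.03 over all genes. The log2 ratio was 0.73 for Col15a1 (95% interval 0.39 to 1.08), 0.60 for Col26a1 (0.37 to 0.84) and -1.02 for Col12a1 (-1.36 to -0.70). Col1a1, Col1a2 and Col3a1 had 0.45, 0.49 and 0.54, below the 1.5-fold limit.

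For Cdk2-Y15S over Cdk2-WT in stromal cells, 11 of 32 members tested were higher, where 6.32% of all genes were, and Col13a1 alone was lower, where 3.74% of all genes were. The median was 0.31 over the members and 0.02 over all genes. The fibrillar genes Col1a1 (0.79, 0.76 to 0.83), Col1a2 (0.71, 0.68 to 0.74), Col3a1 (0.76, 0.72 to 0.80) and Col5a2 (0.77, 0.65 to 0.89) were among the 11. So were the type IV chains Col4a1 (0.59), Col4a5 (0.80) and Col4a6 (0.64), and Col15a1 (1.23, 0.91 to 1.57) and Col16a1 (0.67). The 2 largest log2 ratios were those of the rare chains Col6a4 (2.42, 1.48 to 3.68) and Col6a6 (2.16, 1.25 to 3.35). Col13a1 had -0.63 (-0.82 to -0.44), and the next lowest members were Col25a1 at -0.46 and Col12a1 at -0.43. The main type VI chains stayed under 1.5-fold, with 0.10 for Col6a1 and 0.33 for Col6a3. Just inside the 1.5-fold limit was Col4a1 at 0.59, and just outside it was Col18a1 at 0.58.

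In the stromal class the sum of 8 stromal markers, none of them a collagen, was 3087, 3484 and 3814 CPM, in the same order as the fibrillar genes. The share of cells with a UMI of Mki67, Top2a, Ccnb1 or Cdk1 was 28.4%, 32.2% and 24.95%. Among stromal cells without such a UMI the log2 ratio of Col1a1 for Cdk2-Y15S was 0.82, and with a stromal gate free of matrix genes it was 0.90. A group of stromal cells with more UMIs of Dpt and Lum than of Htra3, Vcam1 and Smoc2 made up 4.78%, 3.34% and 8.45% of the class, and its Col1a1 level was 2092, 2778 and 3349 CPM. In the stromal cells with the reverse balance, 1223, 1407 and 1360 in number, Col1a1 had 1195, 1669 and 2036 CPM, Col3a1 1278, 1871 and 2110.1 CPM and Col13a1 77.5, 54.3 and 50.8 CPM. The order of the libraries was the same in both groups for Col1a1. Col13a1 was rare in the first group, with 2, 7 and 17 UMIs. Col12a1 was concentrated in the first group, at 126, 77.6 and 65.6 CPM against 24.1, 12.1 and 16.3 CPM.

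In myoid cells 3 of 24 members tested were higher in Cdk2-HET than in Cdk2-WT, where 4.75% of all genes were: Col4a1 at 0.68 (0.56 to 0.79), Col4a3 at 1.26 (0.88 to 1.67) and Col15a1 at 0.72 (0.52 to 0.93). No member was lower. With cells thinned to 3000 UMIs and gated again, which left 161, 281 and 194 myoid cells, Col4a1 had 0.51 and Col15a1 0.41, under 1.5-fold. In Cdk2-Y15S 7 of 23 members were higher, where 5.72% of all genes were, and Col14a1 was lower at -1.16 (-2.04 to -0.38), where 5.34% of all genes were. Of the 7, 4 were type IV chains: Col4a3 at 1.73 (1.34 to 2.15), Col4a4 at 0.96 (0.83 to 1.09), Col4a5 at 0.69 and Col4a1 at 0.66. The others were Col11a1 at 1.10 (0.43 to 1.84), Col1a1 at 0.66 and Col6a3 at 0.64. Col1a2 and Col3a1 had 0.30 and 0.34, and Col4a2 0.27. The medians over the members were 0.23 for Cdk2-HET and 0.30 for Cdk2-Y15S, beside 0.06 and 0.00 over all genes. The sum of 8 myoid markers was 2286, 2345 and 2688 CPM and that of the stromal markers 2019, 2502 and 2802 CPM in this class, and the part of either in the collagen ratios was not tested.

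**Figure D2:**
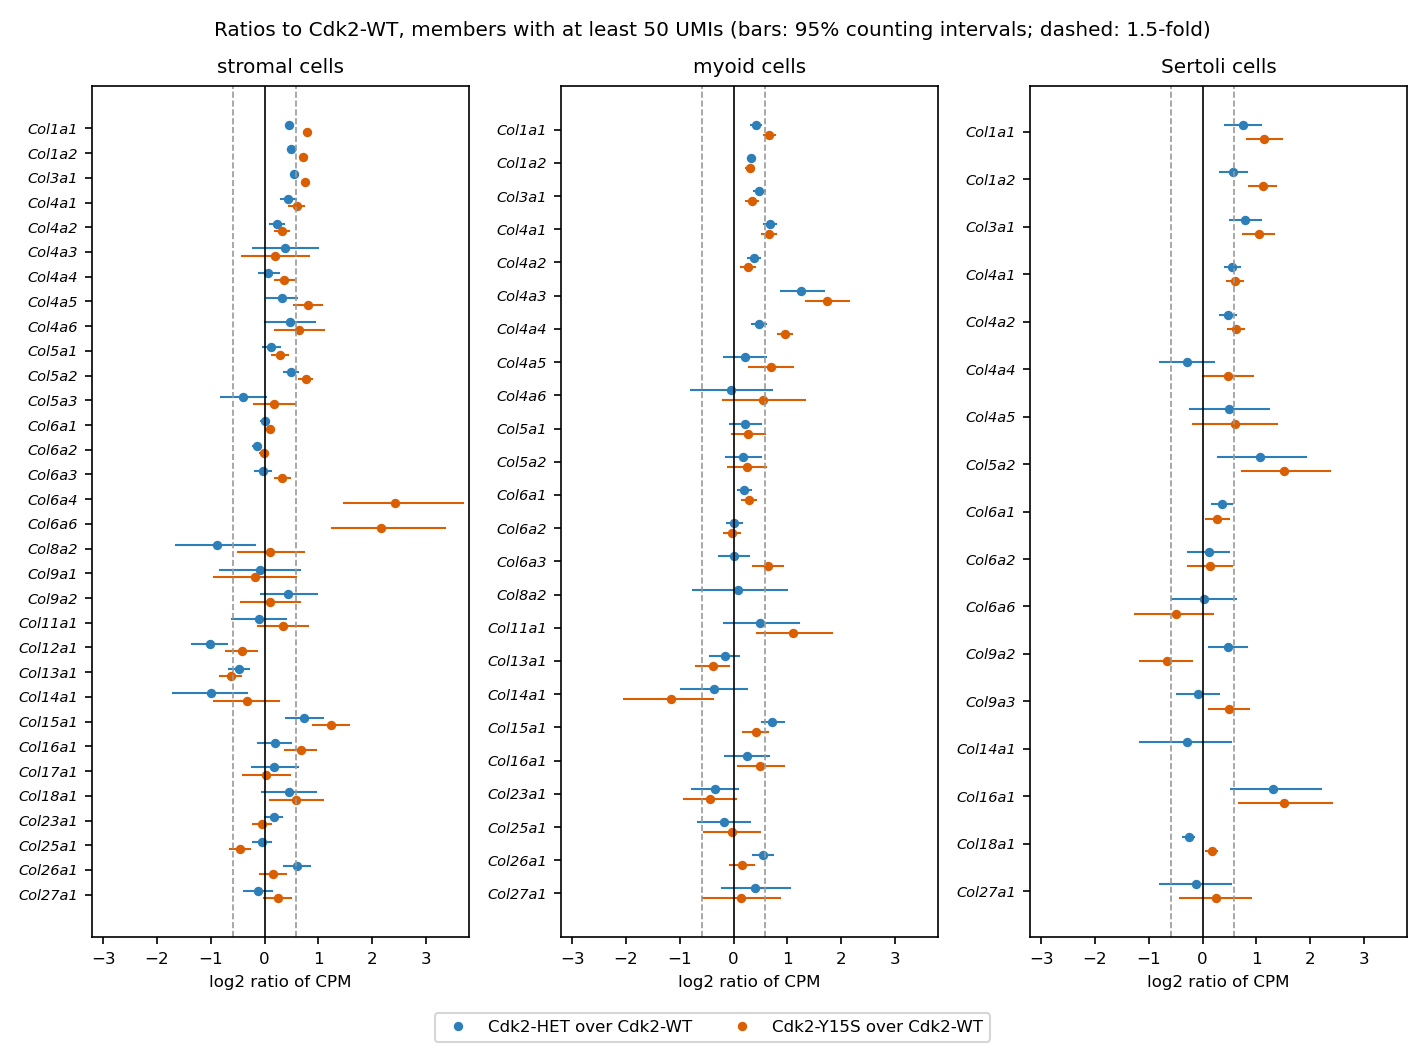
Log2 ratio of each collagen gene in Cdk2-HET and in Cdk2-Y15S over Cdk2-WT in stromal, myoid and Sertoli cells, with the 95% interval of counting error and dashed lines at 1.5-fold. Both comparisons share the Cdk2-WT library; stromal Col15a1 reaches 1.23 and myoid Col4a3 1.73 for Cdk2-Y15S, while stromal Col13a1 lies at -0.63.

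The split between stromal and myoid cells was followed along the UMIs of Acta2, Myh11 and Tagln, with each cell thinned to 3000 UMIs, from cells with none to cells with at least 16. Col4a4 went from 41.7 to 345 CPM in Cdk2-WT, from 53.4 to 470.4 CPM in Cdk2-HET and from 67.2 to 682 CPM in Cdk2-Y15S. Col4a3 went from 5.02 to 31.7 CPM, from 4.85 to 85.2 CPM and from 5.74 to 109 CPM. Both were higher at the muscle-rich end in Cdk2-Y15S than in Cdk2-WT. For Col4a3 the Poisson intervals of those 2 libraries overlapped in cells with up to 3 UMIs of the muscle genes and were apart above. Col15a1 went from 13.5 to 132 CPM in Cdk2-WT and from 27.8 to 146 CPM in Cdk2-Y15S, while in Cdk2-HET it peaked at 210.0 CPM in cells with 8 to 15 UMIs and had 183 CPM at the end. Col26a1 went from 35.5 to 147 CPM, from 51.7 to 207 CPM and from 37.0 to 149.6 CPM.

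The fibrillar genes ran the other way. Col1a1 went from 1316 to 521 CPM in Cdk2-WT, from 1906 to 762 CPM in Cdk2-HET and from 2241 to 821 CPM in Cdk2-Y15S. Col3a1 went from 1412 to 369 CPM, from 2141 to 538 CPM and from 2377 to 497 CPM. The membrane collagen Col23a1 went from 85.3 to 24.2 CPM, from 84.8 to 17.7 CPM and from 77.5 to 21.5 CPM. Each of these was lower in the muscle-rich cells of all 3 libraries. Col6a1 changed less, from 524 to 348 CPM, from 523 to 458 CPM and from 556 to 483 CPM. The fewest cells in a step were 59, in Cdk2-Y15S with 4 to 7 UMIs.

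**Figure D3:**
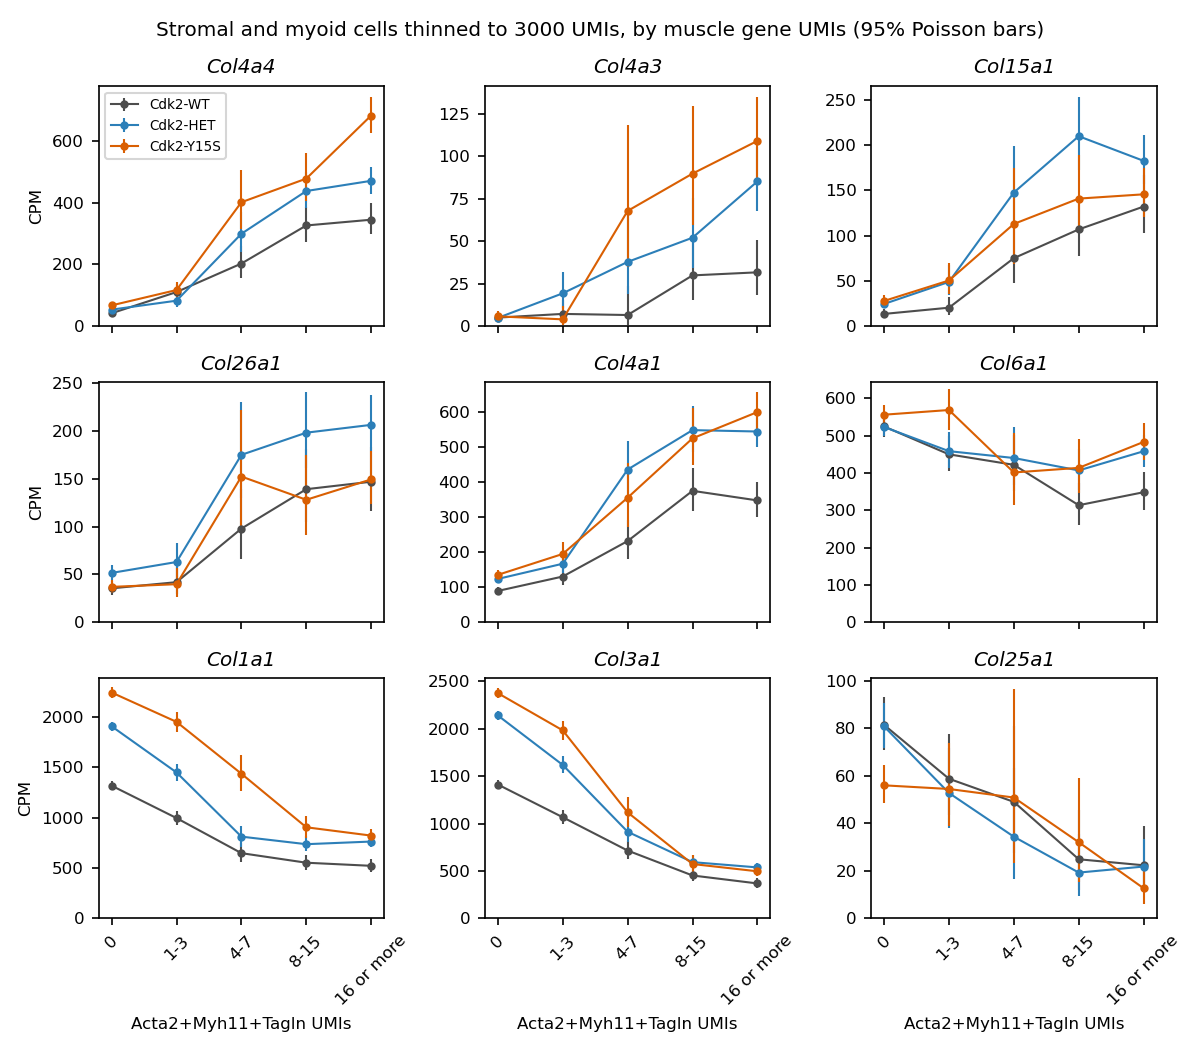
Level in CPM of 9 collagen genes in stromal and myoid cells binned by their UMIs of Acta2, Myh11 and Tagln after thinning to 3000 UMIs, 1 line per library with 95% Poisson intervals. Col4a4 and Col4a3 are highest and Col1a1 and Col3a1 lowest in the bin with 16 UMIs or more.

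In Sertoli cells the leading member was Col18a1 (chr10:77052178-77166548), at 127, 106 and 143 CPM, with Poisson intervals of 121 to 133, 101 to 112 and 135 to 151. A UMI of it was found in 50.4%, 44.6% and 57.2% of Sertoli cells, against 3.56%, 5.08% and 5.35% of stromal cells at median depths of 5081, 5600.5 and 5503 UMIs. After thinning to 3000 UMIs the Sertoli shares were 30.8% (28.7% to 32.9%, exact Clopper-Pearson), 25.7% (23.6% to 27.9%) and 33.8% (31.1% to 36.5%). Cdk2-HET was lowest by each measure. The level was 16.3, 9.99 and 12.2 times that of stromal cells.

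Col4a1 and Col4a2 had 51.1, 75.1 and 77.7 CPM and 49.9, 69.6 and 77.0 CPM in Sertoli cells, lowest in Cdk2-WT, and at 42.9% to 55.3% of the stromal level. Col6a1 had 30.9, 39.6 and 37.4 CPM, Col6a2 9.06, 9.79 and 10.0 CPM, Col6a3 1.45, 1.91 and 2.42 CPM, and Col5a1 1.38, 2.16 and 3.19 CPM. Of collagen IX, Col9a3 had 123, 101 and 114 UMIs (8.92, 8.38 and 12.5 CPM), against 1, 6 and 14 UMIs in stromal cells. The log2 ratio of the Sertoli over the stromal level was 5.37 (95% interval 3.44 to 11.3), 3.51 (2.45 to 5.10) and 2.95 (2.19 to 3.91), so that its size in Cdk2-WT, with 1 stromal UMI, was poorly fixed. A UMI of Col9a3 was found in 5.13%, 5.10% and 7.28% of Sertoli cells against 0.0758%, 0.401% and 0.838% of stromal cells. Its partner Col9a2 had 126, 153 and 52 UMIs (9.13, 12.7 and 5.72 CPM), lowest in Cdk2-Y15S, whereas Col9a1, the third chain of that collagen, had 0, 0 and 1 UMIs.

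The fibrillar genes were low in Sertoli cells: Col1a1 had 9.496, 15.9 and 21.01 CPM, Col1a2 16.6, 24.6 and 36.0 CPM, and Col3a1 12.5, 21.8 and 25.9 CPM. For Col1a1 this was 0.763%, 0.935% and 0.974% of the stromal level. It was also 2.38%, 2.48% and 2.43% of the level over all kept cells of the same library, a share that differed little between the libraries while that level itself was 399, 641 and 866 CPM. Col18a1 stood at 167%, 178% and 193% of the level over all kept cells, and Col9a3 at 168%, 201% and 196%.

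For Cdk2-HET over Cdk2-WT in Sertoli cells 4 of 17 members tested were higher, where 3.28% of all genes were: Col1a1 at 0.74, Col3a1 at 0.80, Col5a2 at 1.07 and Col16a1 at 1.32. For Cdk2-Y15S 8 of 16 were higher, where 7.88% of all genes were, and Col9a2 was lower at -0.67 (-1.17 to -0.20), where 3.33% of all genes were. The 8 were Col1a1 (1.14), Col1a2 (1.11), Col3a1 (1.04), Col5a2 (1.52), Col16a1 (1.51), Col4a1 (0.60), Col4a2 (0.62) and Col4a5 (0.60). When 10% of the UMIs of the class were taken as the library's pooled profile and subtracted, 0 members with the needed UMIs were past 1.5-fold for Cdk2-HET and 1 for Cdk2-Y15S, Col4a2 at 0.66. Col1a1, Col1a2, Col3a1 and Col5a2 lay under 10% of their pooled level in every library. The subtraction therefore set them to 0, and they could not be counted. Col4a1 then had 0.55, Col9a2 -0.71, Col9a3 0.50 and Col18a1 0.18. With a stricter filter, set at 1000 genes and 5% mitochondrial UMIs, which kept 367, 453 and 139 Sertoli cells, the counts were 2 and 0. The Sertoli counts thus depended on both settings, the first of which removed those fibrillar genes whatever their ratio. The stromal markers summed to 77.2, 83.9 and 98.9 CPM in this class, and the part of free RNA in the counts was not tested.

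In Leydig cells type I and III collagen differed most. Col1a1 had 6, 33 and 58 UMIs (14.7, 66.1 and 110.4 CPM), Col1a2 312, 491 and 706 CPM and Col3a1 321, 473 and 613 CPM, lowest in Cdk2-WT and highest in Cdk2-Y15S. Col4a1 had 93.2, 116 and 143 CPM, Col4a2 58.9, 82.2 and 95.2 CPM, Col6a1 201, 271 and 310.2 CPM and Col6a2 81.0, 88.2 and 91.3 CPM. Col5a1, Col5a2, Col6a3 and Col18a1 stayed at or below 64.7 CPM. Col14a1 was the member with its highest class here, at 51.5, 36.1 and 51.4 CPM from 21, 18 and 27 UMIs, which was 7.29, 10.3 and 9.15 times the stromal level.

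For Cdk2-HET 1 of 6 Leydig members tested was higher, Col1a2 at 0.65 (0.34 to 0.98), where 6.9% of all genes were. For Cdk2-Y15S 6 of 7 were higher, where 7.98% of all genes were: Col1a1 at 2.80 (1.70 to 4.41), Col1a2 at 1.18, Col3a1 at 0.93, Col4a2 at 0.68, Col6a1 at 0.62 and Col4a1 at 0.61. In this class 16.4%, 30.9% and 39.1% of cells also passed the stromal gate, and the stromal markers summed to 267, 497 and 628 CPM. At least 3 UMIs of the Sertoli gate genes were found in 56.4%, 58.2% and 40.6% of the cells, and the Leydig and Sertoli marker sums given above were lowest in Cdk2-Y15S, the library with the 6 higher members. The part of these shares in the collagen ratios was tested only for the stromal gate. Among the 46, 38 and 39 cells under the stromal gate, Col1a1 had 5, 13 and 13 UMIs, Col1a2 232, 281 and 399.7 CPM, and Col3a1 270.4, 332 and 460.0 CPM. The log2 ratios for Cdk2-Y15S were then 1.29 for Col1a1, 0.78 for Col1a2 and 0.76 for Col3a1. They were 0.50 for Col6a1 and 0.27 for both Col4a1 and Col4a2. The Col1a1 ratio, on 5 and 13 UMIs, was below its 2.80 in the whole class. Col1a1, Col1a2 and Col3a1 thus stayed past 1.5-fold without the cells of the stromal gate, and the type IV and VI chains did not. Col14a1 was 57.3, 38.3 and 57.1 CPM in those cells, so that it did not depend on them. With the cells thinned to 3000 UMIs and gated again, Col4a2 turned to -0.10 for Cdk2-Y15S.

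Endothelial cells carried the highest type IV levels of Cdk2-WT and Cdk2-Y15S. Col4a1 had 768, 447 and 1468 CPM and Col4a2 1029.6, 447 and 1462 CPM. Col18a1 had 234, 128 and 325 CPM and Col15a1 170.3, 88.0 and 251 CPM. All 4 were lowest in Cdk2-HET and highest in Cdk2-Y15S. The leading fibrillar genes were instead highest in Cdk2-HET and lowest in Cdk2-Y15S: Col1a1 265, 720.5 and 242 CPM, Col1a2 439.6, 1144 and 403 CPM, Col3a1 329, 706 and 218 CPM. Col5a1 and Col5a2 were also highest in Cdk2-HET but lowest in Cdk2-WT, at 11.9, 41.3 and 30.5 CPM and at 23.8, 84.4 and 37.0 CPM. Col6a1 had 111, 226 and 107 CPM, and Col6a2 59.4, 109.6 and 21.8 CPM. For Cdk2-HET 6 of 10 members tested were higher, where 15.2% of all genes were, and 4 were lower, where 12.4% of all genes were. The 6 were Col1a1 (1.43), Col1a2 (1.38), Col3a1 (1.10), Col5a2 (1.73), Col6a1 (1.01) and Col6a2 (0.85), and the 4 were Col4a1 (-0.78), Col4a2 (-1.20), Col15a1 (-0.95) and Col18a1 (-0.88). For Cdk2-Y15S Col4a1 was higher at 0.93 (0.70 to 1.17), 1 of 8 tested where 9.53% of all genes were, and Col3a1 was lower at -0.59 (-1.03 to -0.16), where 6.01% of all genes were.

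The endothelial markers summed to 1616, 1044 and 2009 CPM in this class and the stromal markers to 721, 1247 and 643 CPM. Pericyte markers summed to 7.92, 89.8 and 211 CPM, from 2, 50 and 97 UMIs. They were highest in Cdk2-Y15S, the library with the highest Col4a1 and Col4a2, and their part in the collagen ratios was not tested. The germ markers summed to 3.96, 482 and 10.9 CPM. The germ class has no Cdk2-HET cells, so none were set aside in that library before gating. Among the 21, 37 and 38 cells under the stromal gate, Col1a1 had 23.2, 26.96 and 33.1 CPM and Col3a1 15.4, 19.3 and 40.4 CPM. Col4a1 had 1019, 793 and 1433 CPM there, Col4a2 1281, 782 and 1400.1 CPM, Col15a1 255, 177 and 287 CPM and Col18a1 347, 243 and 393 CPM. Without the cells of the stromal gate the log2 ratios for Cdk2-HET were 0.10 for Col1a1 and 0.13 for Col3a1, no longer past 1.5-fold. Col1a2 was still past it at 0.92, on 2 and 9 UMIs, as were Col5a2 and Col6a1, both at 2.17 on 0 and 4 UMIs. Col6a2 had 0.58, on 0 and 1 UMIs. Col4a1, Col4a2, Col15a1 and Col18a1 were still lowest in Cdk2-HET there. Of these, Col4a2 stayed past 1.5-fold at -0.71, while Col4a1 (-0.36), Col15a1 (-0.53) and Col18a1 (-0.52) did not. For Cdk2-Y15S Col4a1 had 0.49 and Col3a1 turned to 1.13, on 2 and 11 UMIs.

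The endothelial differences of Cdk2-HET also changed when cells were thinned to equal depth and gated again on the thinned counts. Depth and class membership changed together there, and their parts cannot be told apart. With cells thinned to 3000 UMIs, which kept 26, 30 and 41 of them, the log2 ratios were 0.052 for Col4a1, -0.022 for Col4a2 and 0.010 for Col15a1, so that these calls ended, while Col18a1 had -0.68. Of the members that had been higher, Col1a2 turned to -1.03, Col3a1 to -2.13 and Col6a2 to -0.94, while Col1a1 (1.02), Col5a2 (2.12) and Col6a1 (2.30) kept their direction. For Cdk2-Y15S Col4a1 had 0.64 and Col3a1 -0.66, both still past 1.5-fold.

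The deposited germ cells had low collagen levels. Col1a1 stood at 42.9 CPM in Cdk2-WT and 89.2 CPM in Cdk2-Y15S, Col1a2 at 56.1 and 125 CPM and Col3a1 at 32.1 and 82.8 CPM. Col4a1 had 19.8 and 17.8 CPM, Col4a2 33.0 and 22.1 CPM, Col5a1 24.7 and 20.7 CPM, Col6a1 22.3 and 27.1 CPM, Col6a2 23.9 and 20.7 CPM and Col18a1 28.03 and 20.7 CPM, without a common direction. Col5a2 and Col6a3 had at most 14 UMIs in either library. Of 8 members tested 3 were higher in Cdk2-Y15S, where 11.7% of all genes were: Col1a1 at 1.05 (0.58 to 1.55), Col1a2 at 1.15 (0.74 to 1.58) and Col3a1 at 1.35 (0.83 to 1.93). Col1a1 was 10.7% and 10.3% of the level over all kept cells of the same library. With the pooled profile subtracted as above its log2 ratio was -0.19, on the little that lay above 10% in either library. Col1a2 and Col3a1 were under 10% of their pooled level in both libraries, so that the subtraction set them to 0 and left no ratio. The stromal markers summed to 120.4 and 182 CPM in the germ cells. In the deposited clustering of these cells, cluster C, with 5 and 8 cells, had 255 and 345 CPM of Col1a1 and 1575 and 2004 CPM of all collagens, against 367 and 405 CPM of all collagens in the other cells. Without cluster C the 3 log2 ratios were 1.18, 1.29 and 1.25, so that they did not rest on it. Of the germ cells, 36.2% and 44.4% also passed the stromal gate, at median depths of 16653 and 18461.5 UMIs. At least 3 UMIs of the Sertoli gate genes were found in 29.0% and 19.4%. The part of these cells in the 3 ratios was not tested.

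The ratio of chains within a type was compared between classes, where the capture of each gene is the same on both sides. Col1a1 over Col1a2 was 0.698, 0.682 and 0.739 in stromal cells, 0.420, 0.444 and 0.540 in myoid cells and 0.0472, 0.135 and 0.156 in Leydig cells. In Sertoli cells it was 0.572, 0.646 and 0.584, in endothelial cells 0.604, 0.630 and 0.600, and in germ cells 0.765 and 0.714. Myoid and Leydig cells thus had fewer Col1a1 UMIs for each Col1a2 UMI than stromal cells in every library. The myoid ratio of Cdk2-Y15S (interval 0.511 to 0.570) lay above those of Cdk2-WT (0.394 to 0.447) and Cdk2-HET (0.424 to 0.465).

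Col4a1 over Col4a2 was 0.860, 0.989 and 1.04 in stromal cells and 0.968, 1.19 and 1.27 in myoid cells, lowest in Cdk2-WT in both, and 1.02, 1.08 and 1.01 in Sertoli cells. Col4a3 over Col4a4 was 0.0909, 0.113 and 0.0810 in stromal and 0.0911, 0.157 and 0.157 in myoid cells. In myoid cells these gene pairs with nearly touching starts therefore did not keep 1 ratio across the libraries. Col4a5 over Col4a6 was 2.90, 2.62 and 3.24 in stromal and 3.19, 3.79 and 3.50 in myoid cells. Col5a1 over Col5a2 was 0.748, 0.578 and 0.536 in stromal cells but 1.28, 1.33 and 1.30 in myoid cells. Col6a1 over Col6a2 was 1.40, 1.55 and 1.502 in stromal and 3.41, 4.05 and 3.74 in Sertoli cells, and 2.48, 3.07 and 3.40 in Leydig cells. Sertoli and Leydig cells thus had more Col6a1 for each Col6a2 UMI than the stroma. Col9a2 over Col9a3 in Sertoli cells was 1.02, 1.51 and 0.456.

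**Figure D4:**
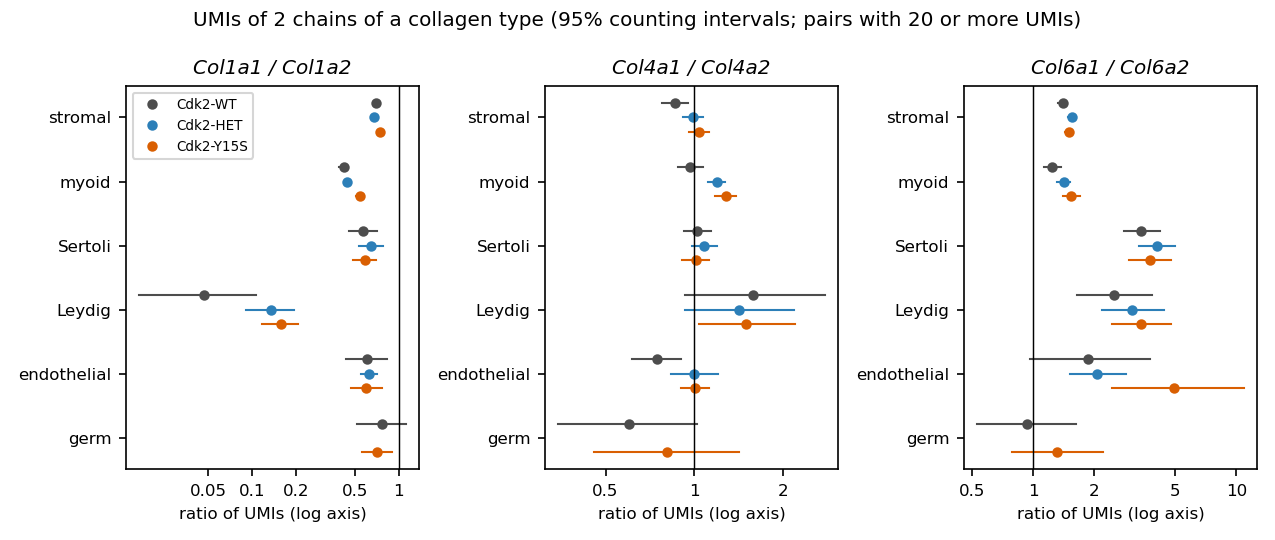
Ratio of UMIs of Col1a1 to Col1a2, Col4a1 to Col4a2 and Col6a1 to Col6a2 in each class, 1 point per library, with 95% intervals of counting error, for pairs with at least 20 UMIs. Leydig cells have the lowest Col1a1 to Col1a2 ratios, at 0.0472, 0.135 and 0.156.

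Genes that build, process and bind collagen were read from lists of pathway genes. Over all genes tested in stromal cells of Cdk2-Y15S over Cdk2-WT, 6.32% were higher and 3.74% lower, the shares to set beside the list counts of that comparison. In it, none of 21 tested enzymes and chaperones of biosynthesis was higher and 1 was lower. That was P4ha3, a subunit of prolyl hydroxylase, at 9.23, 4.42 and 3.93 CPM (-1.22). The lysyl hydroxylase Plod2 had 31.0, 36.1 and 42.1 CPM (0.44), the peptidyl-prolyl isomerase Ppib had 0.30 and Fkbp14 had -0.31. The median of the list was 0.12. Of 9 tested genes for processing and cross-linking none was higher or lower, with Furin at 0.40, the cross-linking enzyme Lox at 0.38 (46.3, 55.5 and 60.4 CPM), Pcolce at -0.34 and Loxl2 at -0.39.

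Of 14 tested partners of fibrils, 1 was higher and 2 were lower, where 6.32% and 3.74% of all genes were. Postn, which binds collagen and aids its cross-linking, had 10.4, 20.2 and 55.8 CPM (2.42). Aspn and Fbln1, a small proteoglycan and a glycoprotein of the matrix, had 94.5, 50.1 and 36.9 CPM (-1.35) and 117, 91.4 and 74.4 CPM (-0.65). Sparc, a collagen-binding secreted protein, had 1998, 2108 and 2738 CPM (0.45). Of 6 tested receptors Itga11, an integrin chain for fibrillar collagen, was higher at 4.90, 5.21 and 7.97 CPM (0.69), with Ddr2 at 0.49, Adgrg1 at -0.06 and Ddr1 at -0.23. Of 7 tested genes of breakdown and its inhibitors none was higher and the protease Mmp11 was lower at 105, 96.4 and 69.3 CPM (-0.60), with Timp1 at 0.47, Timp2 at 0.40 and Timp3 at -0.45.

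For Cdk2-HET in stromal cells Postn (0.95) and the protease Fap (0.63) were higher, and P4ha3 (-1.06), Aspn (-0.92) and Tnxb (-0.61) were lower, of 21, 9, 13, 6 and 8 genes tested in the 5 lists. Of all genes tested, 4.72% were higher and 2.39% lower there. After thinning Fap turned to -0.15. In myoid cells 1 of 20 biosynthesis genes was lower in each comparison, P4ha2 at -0.84 for Cdk2-HET and P3h2 at -0.87 for Cdk2-Y15S. For Cdk2-HET 1 of 10 fibril partners was lower, the small matrix protein Dpt at -0.63 (-1.44 to 0.19) on 28 and 27 UMIs, and it turned to 0.36 with gates free of matrix genes. The share of all genes lower in myoid cells of Cdk2-HET is not given, so the counts of lower genes there have no background. Elastin (Eln) was higher in myoid cells of Cdk2-Y15S at 194, 211 and 313 CPM (0.69), as was Furin (0.71), while Loxl3 (-0.96), Fbln1 (-0.64) and Aspn (-0.63) were lower. These were among 8 processing genes and 9 fibril partners tested, where 5.72% of all genes were higher and 5.34% lower. Of 4 receptors and 7 breakdown genes tested in myoid cells none was higher or lower in either comparison. In Sertoli cells of Cdk2-Y15S 7.88% of all genes were higher and 3.33% lower. There 3 of 6 processing genes and 3 of 10 fibril partners were higher. Of 19 biosynthesis and 8 breakdown genes, 1 in each list was higher and 1 lower, and of 4 receptors none was.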

How the data were processed

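Testis cells of 3 mouse libraries were analysed, 1 per genotype. The authors deposited raw UMI counts per gene and cell, made with Cell Ranger 2.1.0 on mm10, with Seurat also named, per the submitters' processing notes. A deposited table of germ cell counts with their clusters gave the germ class, and its counts equalled those of the matrix for all 10439 genes found once in both. The libraries held 30624473, 32025077 and 28651691 UMIs.

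Cells were filtered and doublets called with Scrublet in scanpy 1.11.5 at an expected rate of 0.06 (Python 3.11.15, scipy 1.17.1, numpy 2.4.6, pandas 2.3.3, matplotlib 3.10.9), then gated as the report states. Cells past both the stromal and the Sertoli gate, or past more than 1 of the Leydig, endothelial and macrophage gates (3, 4 and 8 in all), were left out, while Leydig, endothelial and macrophage cells were kept whether or not they passed the stromal or Sertoli gate. The Leydig gate was at least 10 UMIs of Cyp17a1, Cyp11a1, Hsd3b1, Insl3 and Star, and the endothelial gate at least 5 of Pecam1, Cdh5, Kdr, Egfl7, Emcn, Cldn5 and Esam. The germ cells were taken whole, although 45 of Cdk2-WT and 37 of Cdk2-Y15S were above the mitochondrial limit. UMIs were summed per class and library and divided by the total of the class. Poisson intervals and conditional binomial intervals were exact, at 95%. The ratio script was tested on simulated data.

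Values are named for members with at least 50 UMIs in a class, for Col1a1, Col1a2, Col3a1, Col4a1, Col4a2, Col5a1, Col5a2, Col6a1, Col6a2, Col6a3 and Col18a1 in every class, and for the 2 highest and 2 lowest ratios of a pathway list. Values of Col4a3, Col4a4 and other members under that minimum in some classes, and the printed sequences, were chosen after their values were seen. The members and the lists were chosen with earlier results of these data known. Alternatives covered filters, doublets, scaling, thresholds, gates, depth, pooled RNA and cycling cells.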

Additional observations from a re-analysis of the deposited data

Results flagged for a closer look

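Some members differed in opposite directions in different classes. None of these differences between classes was tested, since each rests on 1 library per genotype. For Cdk2-HET over Cdk2-WT, the log2 ratio of Col15a1 was 0.73 in stromal and 0.72 in myoid cells but -0.95 in endothelial cells. Col4a1 likewise had 0.68 in myoid cells and -0.78 in endothelial cells. Col3a1 for Cdk2-Y15S over Cdk2-WT had 0.76 in stromal, 1.04 in Sertoli, 0.93 in Leydig and 1.35 in germ cells but -0.59 in endothelial cells. The endothelial value of each is from 33, 64 and 53 cells, of which 36.4%, 42.2% and 28.3% also passed the stromal gate. Among the endothelial cells under that gate the ratios were -0.53 for Col15a1, -0.36 for Col4a1 and 1.13 for Col3a1. With cells thinned to 3000 UMIs and gated again, the endothelial ratios were 0.010, 0.052 and -0.66. In the endothelial class the germ markers summed to 3.96, 482 and 10.9 CPM and the endothelial markers to 1616, 1044 and 2009 CPM. Their part in these ratios was not tested.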

How the results depend on the processing

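No paired analysis was possible because each genotype had 1 library. Over all results and alternatives, 3387 values stayed in place, 371 moved and 19 reversed. The main counts of members higher than Cdk2-WT were 2 (Cdk2-HET) and 11 (Cdk2-Y15S) in stromal, 3 and 7 in myoid, and 4 and 8 in Sertoli cells. In stromal cells of Cdk2-HET the count became 1 with size factors, with gates free of matrix genes, with higher gates and with pooled RNA subtracted, 5 with no minimum above 1 UMI or without cycling cells, 6 after thinning, 4 in the Dpt and Lum group and 0 at 2-fold. In stromal cells of Cdk2-Y15S it became 3 at 2-fold and 6 in the Dpt and Lum group. In myoid cells the 2-fold counts were 1 and 2, and with no minimum above 1 UMI they were 6 and 11. In Sertoli cells the counts of Cdk2-HET were 2 with the strict filter, after thinning or at 2-fold, 7 with doublets kept, 8 with gates free of matrix genes, 9 at a minimum of 20 UMIs, 14 at 1 UMI and 0 with pooled RNA subtracted. Those of Cdk2-Y15S were 0 with the strict filter, 5 with size factors, after thinning or at 2-fold, 13 at 20 UMIs, 25 at 1 UMI, 1 with pooled RNA subtracted and 4 without cycling cells. The cause of these moves was not tested. The cycling alternative gave no germ value, since every Cdk2-Y15S germ cell had a cycle UMI.

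Reversed log2 ratios were few and in sparse classes, groups or genes. With the strict filter in Sertoli cells Eln became -0.46 (Cdk2-HET) and -0.21 (Cdk2-Y15S) and Timp2 -0.82 (Cdk2-Y15S). With gates free of matrix genes myoid Dpt became 0.36 (Cdk2-HET). After thinning, stromal Fap became -0.15 (Cdk2-HET), Sertoli Col4a5 -0.018 and Leydig Col4a2 -0.10 (both Cdk2-Y15S), and in endothelial cells of Cdk2-HET Col1a2 became -1.03, Col3a1 -2.13, Col6a2 -0.94, Col4a1 0.052 and Col15a1 0.010. With pooled RNA subtracted, Col4a5 in Sertoli and Col1a1 in germ cells of Cdk2-Y15S became -0.20 and -0.19, the germ value on the little Col1a1 left after subtraction. Endothelial Col3a1 of Cdk2-Y15S became 1.13 under the stromal gate. In the Dpt and Lum group Col14a1 became 0.39 and Col26a1 -0.70 for Cdk2-HET, and Col4a6 -0.26 and Col13a1 1.45 for Cdk2-Y15S. The alternatives under the stromal gate, without germ cluster C and in the Dpt and Lum group were chosen after seeing the data. The few cells, and so the few summed UMIs, limit the Leydig, endothelial and germ classes most, where 6 to 10 members had the 50 UMIs needed.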

Other observations

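Among the collagens under 50 UMIs in every class, a few had more UMIs in germ cells of Cdk2-WT than of Cdk2-Y15S. Col22a1, a collagen of tissue junctions, had 17 UMIs in the 69 Cdk2-WT germ cells and 5 in the 72 of Cdk2-Y15S. Col6a5 had 12 and 4 UMIs, and Col2a1, the main collagen of cartilage, had 7 and 1. Others did not differ in this way: Col24a1 had 1 and 1 UMIs, and Col8a1, Col10a1, Col20a1 and Col28a1 had 0 in both. These genes were picked after their values were seen, and no test was made.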
